A study of Mus musculus with 16 samples.

Results

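The response of Aim2-/- CD4+ T cells to Treg culture was described from 8 of the 16 RNA-sequencing libraries of the series, all those whose titles give the knockout genotype. They comprise 4 libraries of naïve cells (Tn) and 4 of cells kept for 2 days (48 h) in Treg conditions (Treg). AIM2 is a cytosolic receptor of double-stranded DNA, and the series asked how its loss affects mouse CD4+ T cells and the regulatory T cells induced from them in vitro; the other 8 libraries are the wild-type (WT) cells of the same states. Naïve CD4+ CD44low cells were selected with magnetic beads from spleens of Aim2-/- mice on a C57BL/6 background. The Treg group was then stimulated through CD3 and CD28 in the presence of recombinant human TGF-beta and recombinant mouse IL-2, so that the comparison joins activation, both cytokines and time in culture. These cannot be told apart, as no library holds cells cultured without one of them. No source used here says whether the 4 replicates of a group came from separate mice, and p-values measure only the spread between these samples.

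A naïve CD4+ T cell is a small, quiescent cell that recirculates between blood and lymphoid organs. Signals through the T cell receptor and CD28 make it grow, enter the cell cycle and divide, and TGF-beta with IL-2 then induces FOXP3, the transcription factor that defines regulatory T cells. Growth draws on glycolysis, amino acid uptake, lipid synthesis and ribosome assembly, while the receptors that guide naïve cells to lymph nodes are lost.

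The total count of a library was 26440073 at the lowest and 30811867 at the highest. Levels are given in CPM, counts per 1000000 scaled with TMM factors, and a floor of 3 counts stood for 0.104 CPM on average in Tn and 0.107 CPM in Treg, a limit that covers counting error only. Of 53090 genes in the files, 13713 reached 10 counts in 4 or more of the 8 libraries and were tested. The targeted gene was measured first. Aim2 (ENSMUSG00000037860.15, chromosome 1, 173350879 to 173466040 on GRCm38) stood at 9.24, 6.77, 6.57 and 6.98 CPM in Tn and 10.8, 9.90, 8.75 and 7.07 CPM in Treg. The groups overlapped and the difference was not called (log2 fold change 0.30 ± 0.17 (SE), edgeR adjusted p = 0.12), whereas the WT means were 35.8 CPM in Tn and 39.8 CPM in Treg, above every knockout library. Without Tn replicate 1 or Treg replicate 4, the difference was called (log2 fold change 0.42 in both, edgeR adjusted p = 0.038 and 0.035). Residual transcripts of the targeted locus were thus counted in all 8 libraries. The counts were deposited per gene, and which exons they came from was not analysed here.

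Most of the transcriptome differed between the states. In such bulk RNA, fewer cells of a type and less RNA per cell cannot be told apart. Of the genes tested, 10878 (79.3%) were called at an adjusted p below 0.05 by the quasi-likelihood test of edgeR, 5363 (39.1%) higher and 5515 (40.2%) lower in Treg than in Tn. A change of more than 2-fold, tested against that fold itself, was called for 2584 genes (18.8%) upwards and for 2666 (19.4%) downwards. The median log2 fold change over all genes tested was -0.04, with quartiles of -1.03 and 0.92, and these shares are the background against which each gene list below has to be read. Without overlap between the 4 Treg and the 4 Tn libraries were 10258 genes (74.8%). The first principal component, which separated the states, held 90.5% of the variance. The second held 3.13% and set Treg replicates 1 and 2 apart from replicates 3 and 4, with the spread of single genes given further on.

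**Figure D1:**
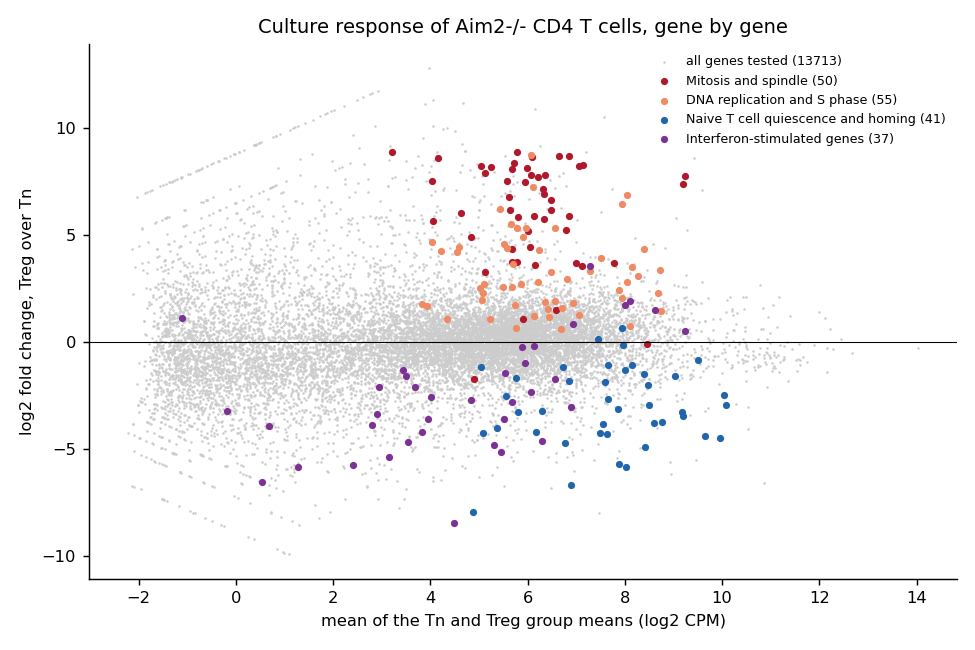
Each point is 1 of the 13713 genes tested, with the mean of its Tn and Treg group means (log2 CPM) on the horizontal axis and its log2 fold change, Treg over Tn, on the vertical axis. Coloured points are members of 4 gene lists, of which the replication and mitosis genes lie almost all above 0, and most naïve T cell genes and interferon-stimulated genes below it.

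The largest rises, among genes of at least 10 CPM in the higher group and without overlap between groups, began with genes that had no count in any naïve library. Il1rn, the secreted antagonist of the interleukin-1 receptor, was at 0 in the 4 Tn libraries and at 14.6, 29.9, 24.3 and 57.2 CPM in Treg, at least 302-fold higher. Il9, a T cell cytokine, went from 0 to 11.8, 13.4, 5.66 and 29.6 CPM, at least 145-fold, a call lost with replicates 3 and 4 alone (edgeR adjusted p = 0.17). Krt81, a keratin, Tmeff1, a membrane protein, Pigr, the polymeric immunoglobulin receptor, and Gja1, the gap junction protein connexin 43, were also without a count in Tn, with lower bounds of 134, 130.3, 118 and 107-fold. All 4 Treg libraries held each of these 6 genes above 5 CPM, with Il1rn and Il9 the most uneven between libraries.

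The other 4 of the 10 largest rises had a few naïve counts. Acsl6, which activates long-chain fatty acids, had 1 count in Tn and 40.04, 38.9, 27.4 and 26.95 CPM in Treg, a ratio of 3843 (95% exact interval 689 to 151810.0). Tead1, a DNA-binding partner of the Hippo pathway, had 2 counts in Tn and 54.3, 56.3, 45.3 and 47.2 CPM in Treg, a ratio of 2933 (95% exact interval 812 to 24225). Ratios and exact intervals, here and below, come from counts summed over the 4 libraries of each group. These intervals cover counting error only, not the spread between libraries. The unannotated Gm17322, some of whose counts were shared between genes, had 1 count and 12.2, 22.4, 41.2 and 42.4 CPM. Scd1, the stearoyl-CoA desaturase, stood at 0.0749, 0.0630, 0.0746 and 0.0655 CPM in Tn and 45.5, 164, 167 and 189 CPM in Treg (log2 fold change 10.91 ± 0.66 (SE), edgeR adjusted p = 9.6e-08), with replicate 1 the lowest of the Treg libraries.

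At the other end, Oas2, an interferon-induced oligoadenylate synthetase, fell from 36.5, 48.0, 58.7 and 34.8 CPM to 0.150, 0.214, 0.0998 and 0.0366 CPM (log2 fold change -8.43 ± 0.31 (SE), edgeR adjusted p = 1.0e-09). Fos, an immediate early transcription factor, fell from 378, 294, 362 and 384 CPM to 1.80, 1.25, 1.20 and 1.43 CPM (log2 fold change -7.97 ± 0.16 (SE), edgeR adjusted p = 7.9e-12). Both were lower in every Treg library than in any Tn library, which the rule for naming the largest falls required. Ramp3, a subunit of calcitonin-family receptors, had a log2 fold change of -7.95, Icosl, the ligand of ICOS, of -7.76, and Dtx1, a regulator of Notch signalling, of -6.83. The chemokine Ccl5 spread from 18.3, 9.01, 47.3 and 12.9 CPM in Tn to 0.112, 0.0715, 0.333 and 0 CPM in Treg (log2 fold change -7.31 ± 0.77 (SE), edgeR adjusted p = 7.5e-06), replicate 3 being the highest of both groups, and its log2 fold change was -6.60 without Tn replicate 3 and -8.37 without Treg replicate 3. Lrrc75b (-7.33), the channel genes Cnga1 (-6.74) and Gabrr2 (-6.74), and the unannotated Gm37939 (-6.88) complete the 10 largest falls. Without Treg replicate 1 the values of Lrrc75b, Icosl and Ramp3 were -9.86, -8.99 and -8.90.

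Genes of the cell cycle rose together in the cultured cells. All 55 genes of DNA replication and S phase were called higher in Treg and 50 of them by more than 2-fold, against 18.8% of all genes tested, with a median log2 fold change of 2.80. Of 50 genes of mitosis and the spindle, 48 were called higher and 47 by more than 2-fold, with a median of 6.73.

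Within replication, licensing factors, fork proteins and nucleotide enzymes all took part. Mcm10, which helps to open the replication fork, stood at 0.225, 0.283, 0.298 and 0.426 CPM in Tn and 134, 138, 134 and 132 CPM in Treg (log2 fold change 8.74 ± 0.13 (SE), edgeR adjusted p = 2.6e-12). Chaf1a, the large subunit of the chromatin assembly factor behind the fork, and Rrm2, the small subunit of ribonucleotide reductase, had log2 fold changes of 7.28 ± 0.16 and 6.89 ± 0.13. Every Treg library was above every Tn library for these 3 genes. Cdc45, a part of the replicative helicase, went from a mean of 2.13 ± 0.216 CPM in Tn to 99.0 ± 10.6 CPM in Treg, and the thymidylate synthase gene Tyms from 3.90 ± 0.716 CPM in Tn to 116 ± 4.84 CPM in Treg (± SD, n = 4). The clamp Pcna was already at 247, 215, 208 and 242 CPM in Tn and reached 635, 625, 606 and 659.8 CPM (log2 fold change 1.47 ± 0.083 (SE), edgeR adjusted p = 2.2e-08). The smallest rise of the list was that of Cdt1, the licensing factor (log2 fold change 0.63 ± 0.10 (SE), edgeR adjusted p = 1.2e-04). Mcm5 (3.51) and Mcm6 (3.37), subunits of the same helicase, and Uhrf1 (6.49), which brings the maintenance methyltransferase to newly copied DNA, are the members whose promoters are shown next.

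Promoters of these lists were searched for motifs known from the regulation of such genes, in the RefSeq window from 250 bases before to 50 after each gene's start (GRCm38.p6). The E2F motif, written as TTTCCCGC, TTTCGCGC, TTTGGCGC or TTTGCCGC and searched on both strands, was found in 31.5% of 54 promoters of replication genes, against 3.98% of the promoters of all genes tested and 2.26% of all 32851 promoters. It belonged to 17 of the 45 members with a promoter in the table. The following stretches, all before the start, show E2F matches in capitals, where overlapping matches run together. Mcm5 and Mcm6 were picked for display after their values and matches had been seen.
Mcm6 (chr1:128359706-128359955, minus strand): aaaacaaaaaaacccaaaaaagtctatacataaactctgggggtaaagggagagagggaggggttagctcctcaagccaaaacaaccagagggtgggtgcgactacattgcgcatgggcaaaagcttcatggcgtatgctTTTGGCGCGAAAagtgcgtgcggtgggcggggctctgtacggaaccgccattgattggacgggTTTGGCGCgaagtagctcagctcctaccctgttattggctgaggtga
Mcm5 (chr8:75109316-75109407, plus strand): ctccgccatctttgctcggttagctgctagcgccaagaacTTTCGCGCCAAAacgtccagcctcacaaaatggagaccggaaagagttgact
Uhrf1 (chr17:56304088-56304175, plus strand): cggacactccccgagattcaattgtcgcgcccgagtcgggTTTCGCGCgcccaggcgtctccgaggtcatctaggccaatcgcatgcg

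Among the mitotic genes, Cdk1, the kinase that starts mitosis, stood at 0.337, 0.409, 0.634 and 0.491 CPM in Tn and 202, 206, 194 and 193 CPM in Treg (log2 fold change 8.72 ± 0.14 (SE), edgeR adjusted p = 2.6e-12). Its partner Ccnb1, cyclin B1, had a log2 fold change of 8.70 ± 0.14, and Aurkb, the kinase of the chromosomal passenger complex, of 8.67 ± 0.13. No Tn library reached 1 CPM for any of these 3 genes. The largest rises were those of Hmmr (8.90), a spindle-associated protein, and of Cdc25c (8.89), the phosphatase that activates CDK1, whose only naïve counts were in Tn replicate 1 (12.05 without that library). Top2a, which untangles replicated chromosomes, went from 6.90 ± 1.64 CPM in Tn to 1172 ± 127 CPM in Treg, and Mki67, the usual marker of cycling cells, from 5.47 ± 0.719 CPM in Tn to 1197 ± 51.4 CPM in Treg (± SD, n = 4). A pair of members did not follow. Pttg1, securin, fell from 38.2, 49.1, 46.8 and 47.1 CPM to 13.3, 14.9, 13.1 and 14.8 CPM (log2 fold change -1.69 ± 0.10 (SE), edgeR adjusted p = 4.3e-08), and Smc4, a condensin subunit, was not called (log2 fold change -0.07 ± 0.076 (SE), edgeR adjusted p = 0.41).

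Promoters of mitotic genes are known for a cell cycle homology region (CHR) next to CCAAT boxes. TTTGAA, the CHR searched on both strands, was in 76.2% of 42 promoters of mitotic genes, against 12.2% of the promoters of genes tested and 17.9% of all promoters. CCAAT was in 78.6%, against 37.8% and 37.4%. In the stretches of Cdk1 and Mki67 below, which end at or before the start, both motifs are in capitals.
Cdk1 (chr10:69352913-69353162, minus strand): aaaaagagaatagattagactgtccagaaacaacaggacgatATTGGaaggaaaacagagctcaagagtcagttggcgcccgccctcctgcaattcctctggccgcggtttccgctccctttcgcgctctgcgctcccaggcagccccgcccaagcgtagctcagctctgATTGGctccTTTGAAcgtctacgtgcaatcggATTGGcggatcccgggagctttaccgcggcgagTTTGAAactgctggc
Mki67 (chr7:135716432-135716607, minus strand): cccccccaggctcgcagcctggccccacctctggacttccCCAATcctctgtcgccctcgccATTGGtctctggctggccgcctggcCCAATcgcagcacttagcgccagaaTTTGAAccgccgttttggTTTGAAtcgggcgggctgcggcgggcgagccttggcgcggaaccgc

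**Figure D2:**
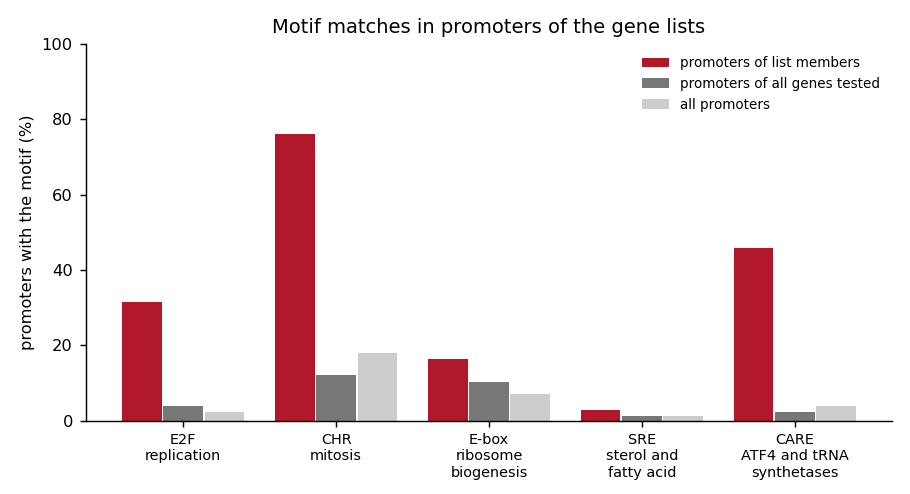
Bars give the percentage of promoters with at least 1 match of a motif, for the promoters of the named list, of all genes tested and of all genes in the table. The CHR in mitotic genes (76.2%), the CARE in ATF4 targets (45.8%) and the E2F motif in replication genes (31.5%) stand well above the grey bars, and the SRE in sterol genes (2.7%) does not.

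The regulators of the G1 phase moved in both directions. Of 16 tested, 10 were called higher and 4 lower, beside 39.1% and 40.2% of all genes tested, with a median of 0.84. E2f3, an activating E2F factor, stood at 3.11, 3.97, 3.88 and 3.24 CPM in Tn and 62.9, 69.7, 65.6 and 61.2 CPM in Treg (log2 fold change 4.19 ± 0.11 (SE), edgeR adjusted p = 6.6e-11). The G1 kinase gene Cdk6 rose (log2 fold change 2.85 ± 0.18 (SE), edgeR adjusted p = 6.2e-08), as did Ccnd2, cyclin D2 (log2 fold change 0.91 ± 0.094 (SE), edgeR adjusted p = 3.6e-06), and the CDK4 and CDK6 inhibitor Cdkn2c (log2 fold change 3.07 ± 0.20 (SE), edgeR adjusted p = 8.6e-08). The inhibitor Cdkn1b, p27, fell from 215, 215, 148 and 198 CPM to 34.3, 29.5, 27.8 and 21.5 CPM (log2 fold change -2.78 ± 0.16 (SE), edgeR adjusted p = 4.3e-08). Cdkn1c, p57 (-3.98), Rbl2, the pocket protein of quiescent cells (-1.62), and Ccnd1, cyclin D1 (-1.99), fell too, and Ccnd1 was under 3 CPM in all libraries.

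Genes of cell growth and biosynthesis formed the next block of rises. All 51 ribosome biogenesis genes were called higher and 31 by more than 2-fold, with a median log2 fold change of 1.41. Of the 40 genes of sterol and fatty acid synthesis tested, 37 were called higher, 26 of them by more than 2-fold, and 2 lower, with a median of 1.85. Serine synthesis and one-carbon metabolism had 16 of 18 genes called higher, 14 by more than 2-fold, and amino acid transport 11 of 15, 10 by more than 2-fold. Among all genes tested, 39.1% were called higher, 18.8% by more than 2-fold, and 40.2% lower.

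In the ribosome list the changes were even and the levels high. Ncl, nucleolin, stood at 995, 804, 874 and 811 CPM in Tn and 3649, 3997, 3419 and 3846 CPM in Treg (log2 fold change 2.10 ± 0.10 (SE), edgeR adjusted p = 4.9e-09). Npm1, nucleophosmin, had a log2 fold change of 1.74 ± 0.092 and Fbl, fibrillarin, of 0.96 ± 0.075. The largest rises were those of Noc4l (2.60), Nop16 (2.48) and Nhp2 (2.38), all nucleolar assembly factors. Myc, the transcription factor known to drive ribosome assembly, rose from 91.0, 109, 102 and 112 CPM to 334, 364, 356 and 333 CPM (log2 fold change 1.74 ± 0.086 (SE), edgeR adjusted p = 7.3e-09). Its E-box, CACGTG, was in 16.4% of 55 ribosome biogenesis promoters, against 10.2% of the promoters of genes tested and 7.15% of all promoters.

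Lipid synthesis included some of the steepest rises. Beside Acsl6 and Scd1, the desaturase gene Fads2 had no count in Tn and stood at 3.07, 10.4, 8.92 and 9.96 CPM in Treg, at least 77.6-fold higher. Fasn, fatty acid synthase, rose from 149.9, 145, 123 and 141 CPM to 815, 913, 958 and 912 CPM (log2 fold change 2.69 ± 0.093 (SE), edgeR adjusted p = 4.8e-10). On the sterol side, Hmgcs1, an enzyme at the start of the mevalonate pathway, had a log2 fold change of 2.39 ± 0.081. The pathway's transcription factor genes rose less, Srebf1 by 1.07 and Srebf2 by 0.56. Elovl5, a fatty acid elongase (log2 fold change -0.58 ± 0.067 (SE), edgeR adjusted p = 9.4e-06), and Tm7sf2, a sterol reductase (log2 fold change -0.39 ± 0.13 (SE), edgeR adjusted p = 0.016), fell, the call of Tm7sf2 being lost without Treg replicate 1 (edgeR adjusted p = 0.059). The sterol response element searched, TCACNCCAC, was in 2.7% of 37 promoters of this list, the 1 match being that of Hmgcs1, against 1.12% of the promoters of genes tested, and CCAAT was in 64.9%, against 37.8%.

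Serine and one-carbon enzymes, which supply nucleotide synthesis, rose at each step listed below. Phgdh, the first enzyme of serine synthesis, stood at 75.2, 80.5, 80.8 and 88.0 CPM in Tn and 553, 611, 593 and 573 CPM in Treg (log2 fold change 2.84 ± 0.081 (SE), edgeR adjusted p = 1.2e-10). Psat1, the second, had a log2 fold change of 3.88 ± 0.14. The mitochondrial folate enzymes Shmt2 (2.88 ± 0.11) and Mthfd2 (2.14 ± 0.15) rose as well. Aldh1l2, a mitochondrial folate dehydrogenase, had no count in Tn and 0.412, 0.965, 2.89 and 1.90 CPM in Treg, at least 14.8-fold higher, which makes it a low and uneven transcript.

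Among amino acid genes, Slc7a5, the light chain of the large neutral amino acid transporter, stood at 61.6, 62.6, 37.9 and 49.8 CPM in Tn and 390.1, 508, 592 and 510.1 CPM in Treg (log2 fold change 3.24 ± 0.18 (SE), edgeR adjusted p = 4.4e-08). Its heavy chain Slc3a2 was not called (log2 fold change 0.17 ± 0.16 (SE), edgeR adjusted p = 0.36). With replicates 3 and 4 alone Slc3a2 was called higher (0.58, edgeR adjusted p = 7.0e-04), and its log2 fold change ranged from -0.24 to 0.58 over all alternatives. Bcat1, the cytosolic branched-chain aminotransferase, went from 0.861, 1.01, 0.858 and 0.786 CPM to 178, 197, 217 and 251 CPM (log2 fold change 7.90 ± 0.15 (SE), edgeR adjusted p = 7.6e-12), while its mitochondrial counterpart Bcat2 fell (log2 fold change -0.50 ± 0.070 (SE), edgeR adjusted p = 4.3e-05). The neutral amino acid transporters Slc1a4 (4.20) and Slc1a5 (0.54) and the glycine transporter Slc6a9 (4.85) rose, and Slc38a2, a glutamine transporter, fell (log2 fold change -1.42 ± 0.15 (SE), edgeR adjusted p = 3.9e-06).

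The targets of ATF4, the transcription factor of the amino acid response, split by kind. Of 24 tested, 17 were called higher and 3 lower, beside 39.1% and 40.2% of all genes tested, with a median of 1.69. By more than 2-fold, 14 were higher, beside 18.8% of all genes tested. Asns, asparagine synthetase, stood at 0.0374, 0.441, 0.112 and 0.197 CPM in Tn and 19.3, 44.0, 97.7 and 64.3 CPM in Treg (log2 fold change 8.06 ± 0.66 (SE), edgeR adjusted p = 1.1e-06), with the Treg libraries spread from the lowest in replicate 1 to the highest in replicate 3. Chac1, which degrades glutathione, had 3 counts in Tn and 0.487, 1.72, 7.99 and 5.35 CPM in Treg, a ratio of 154 (95% exact interval 52.4 to 749.5), in the same order of libraries. Without Tn replicate 2, the log2 fold change of Asns was 8.83, and that of Chac1 was 7.91 without Tn replicate 4 and 6.40 without Treg replicate 3. Nupr1, a stress-induced chromatin protein, ran the other way, with 33.3, 30.6, 21.1 and 22.3 CPM in Treg against 0, 0.0630, 0.0746 and 0.0983 CPM in Tn (log2 fold change 8.69 ± 0.34 (SE), edgeR adjusted p = 1.1e-09). The tRNA synthetase genes Gars (2.08) and Iars (2.37) rose. Atf4 itself fell (log2 fold change -0.76 ± 0.12 (SE), edgeR adjusted p = 1.3e-04), as did Ddit3, CHOP (log2 fold change -2.18 ± 0.13 (SE), edgeR adjusted p = 3.8e-08). Ppp1r15a, which directs the dephosphorylation of eIF2 alpha, fell from 1436, 1258, 1396 and 1434 CPM to 28.7, 28.7, 32.6 and 30.0 CPM (log2 fold change -5.52 ± 0.10 (SE), edgeR adjusted p = 5.0e-12), with no overlap.

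The composite element bound by ATF4 with C/EBP proteins (CARE), written TGATGNAAN and searched on both strands, was in 45.8% of 24 promoters of this list, against 2.23% of the promoters of genes tested and 3.95% of all promoters. Matches are in capitals for the 3 members with the largest rises, in stretches that lie before the start.
Asns (chr6:7693210-7693459, minus strand): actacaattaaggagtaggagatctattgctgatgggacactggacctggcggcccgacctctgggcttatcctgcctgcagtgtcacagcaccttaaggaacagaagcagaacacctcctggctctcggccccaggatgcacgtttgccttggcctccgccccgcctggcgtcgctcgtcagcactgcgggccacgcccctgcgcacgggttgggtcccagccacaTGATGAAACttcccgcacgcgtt
Nupr1 (chr7:126625533-126625621, minus strand): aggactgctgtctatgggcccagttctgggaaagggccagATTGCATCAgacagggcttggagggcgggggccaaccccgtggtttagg
Chac1 (chr2:119351008-119351096, plus strand): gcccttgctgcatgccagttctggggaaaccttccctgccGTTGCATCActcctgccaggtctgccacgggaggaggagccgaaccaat

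Central carbon metabolism rose in part. Of 27 genes of glycolysis and lactate transport, 17 were called higher and 7 lower, beside 39.1% and 40.2% of all genes tested. The median was 0.74, and 12 were higher by more than 2-fold, beside 18.8% of all genes tested. Hk2, the inducible hexokinase, stood at 1.98, 1.04, 0.597 and 1.38 CPM in Tn and 136, 195, 217 and 204 CPM in Treg (log2 fold change 7.23 ± 0.28 (SE), edgeR adjusted p = 4.0e-09). Slc16a3, a lactate exporter (log2 fold change 3.56 ± 0.39 (SE), edgeR adjusted p = 9.5e-06), and Pgam1, phosphoglycerate mutase (log2 fold change 3.37 ± 0.13 (SE), edgeR adjusted p = 9.2e-10), followed. Ldha (2.12) and Gapdh (1.98) rose at high counts. The glucose transporter genes parted, Slc2a1 rising (log2 fold change 0.40 ± 0.11 (SE), edgeR adjusted p = 0.0068, but 0.067 with upper-quartile factors and 0.17 with all 16 libraries in one fit) and Slc2a3 falling (log2 fold change -1.01 ± 0.10 (SE), edgeR adjusted p = 2.4e-06). The largest falls were those of Pdk1, the kinase that inhibits pyruvate dehydrogenase (log2 fold change -2.45 ± 0.18 (SE), edgeR adjusted p = 3.0e-07), Pfkfb4 (-2.04) and Ldhb (-1.43). Smaller ones were those of Aldoc (-0.95), Pfkfb2 (-0.82) and Pfkm (-0.46), isoforms of steps whose main genes rose or were not called.

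Mitochondrial genes of nuclear origin rose by small steps. In the TCA cycle 20 of 23 were called higher, 7 by more than 2-fold, with a median of 0.80; Cs, citrate synthase, had a log2 fold change of 1.22 ± 0.082, Idh3a of 1.65, Fh1 of 1.51 and Me2, the mitochondrial malic enzyme, of 1.90. Idh2 was the 1 member called lower (log2 fold change -0.71 ± 0.11 (SE), edgeR adjusted p = 1.2e-04). Of 76 nuclear subunits of the respiratory chain, 61 were called higher, against 39.1% of all genes tested, and 6 lower, with a median of 0.72. By more than 2-fold, 15 (19.7%) were higher, which is close to the 18.8% of all genes tested. Cycs, cytochrome c, rose most (log2 fold change 2.00 ± 0.12 (SE), edgeR adjusted p = 3.8e-08), followed by Ndufa12 (1.86) and Cox5a (1.78), and Atp5b, the catalytic subunit of ATP synthase, rose by 1.45 ± 0.10. The 6 that fell were Ndufa6 (-1.08), Ndufv3 (-0.78), Uqcrh (-0.63), Ndufa3 (-0.31), Ndufa2 (-0.27) and Ndufb11 (-0.22). The calls of Ndufb11 and of Ndufa2 and Ndufa3 were lost without Treg replicate 2 (edgeR adjusted p = 0.063, 0.052 and 0.058), and that of Ndufb11 also without Treg replicate 1 (0.063).

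The 13 respiratory genes of the mitochondrial genome did not move as a group. In edgeR, 1 gene, mt-Nd1, was called higher (log2 fold change 0.58 ± 0.18 (SE), edgeR adjusted p = 0.011) and 3 lower, and none was called at more than 2-fold, with a median of 0.01 (1 lower by more than 2-fold without Treg replicate 1). The 3 were mt-Co2 (log2 fold change -1.47 ± 0.45 (SE), edgeR adjusted p = 0.012), mt-Nd6 (log2 fold change -0.59 ± 0.18 (SE), edgeR adjusted p = 0.011) and mt-Co1 (log2 fold change -0.48 ± 0.17 (SE), edgeR adjusted p = 0.024). These genes were uneven between replicates: mt-Co3 stood at 32.2, 30.4, 0.112 and 27.7 CPM in Tn and 38.5, 59.9, 43.6 and 114 CPM in Treg, replicate 3 of Tn being far below the other Tn libraries. Without that library mt-Co3 was called higher (log2 fold change 1.10, edgeR adjusted p = 0.022). The call of mt-Co2 was lost without Tn replicate 2 or Treg replicate 4 (0.054 and 0.066), and that of mt-Co1 without Tn replicate 2 or Treg replicate 1, 2 or 3 (0.058 to 0.079). Fatty acid oxidation was mixed as well, with a median of 0.11. Of its 20 genes, 9 were called higher and 6 lower, beside 39.1% and 40.2% of all genes tested. Cpt2, the inner carnitine transferase, rose (log2 fold change 1.36 ± 0.19 (SE), edgeR adjusted p = 3.7e-05) and Cpt1a, the outer one, fell (log2 fold change -0.40 ± 0.15 (SE), edgeR adjusted p = 0.027), as did Acadm (-0.58), Eci2 (-0.37), Acaa2 (-0.27) and the coactivator gene Ppargc1b (-1.46). Acoxl, an oxidase-like gene, fell from 8.20, 6.14, 7.09 and 4.68 CPM to 2 counts in the 4 Treg libraries, a ratio of Tn to Treg of 361 (95% exact interval 99.7 to 2989.6). The calls of Cpt1a, Eci2 and Acaa2 were lost without Treg replicate 3 or 4 (edgeR adjusted p = 0.061 to 0.10), those of Cpt1a and Eci2 also without Tn replicate 1, that of Eci2 without Tn replicate 3, and that of Acaa2 without Tn replicate 3 or 4 or Treg replicate 2 (0.050 to 0.097).

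Components of the PI3K, AKT and mTOR pathway, which links receptor signals to growth, moved both ways, with 12 of 30 called higher, 14 lower and a median of -0.13, shares close to those of all genes tested (39.1% and 40.2%), and 3 higher and 6 lower by more than 2-fold. Among the rises were Eif4ebp1, a translation repressor controlled by mTOR (log2 fold change 3.50 ± 0.27 (SE), edgeR adjusted p = 6.6e-07), Pik3cg (1.64), Akt1 (1.30) and Mtor (0.70). Among the falls were Pik3ip1, an inhibitor of PI3K (log2 fold change -4.68 ± 0.36 (SE), edgeR adjusted p = 6.8e-07), Pik3r5 (-3.08), Sesn1 (-1.95) and Pik3cd, the kinase subunit typical of lymphocytes (-1.67).

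**Figure D3:**
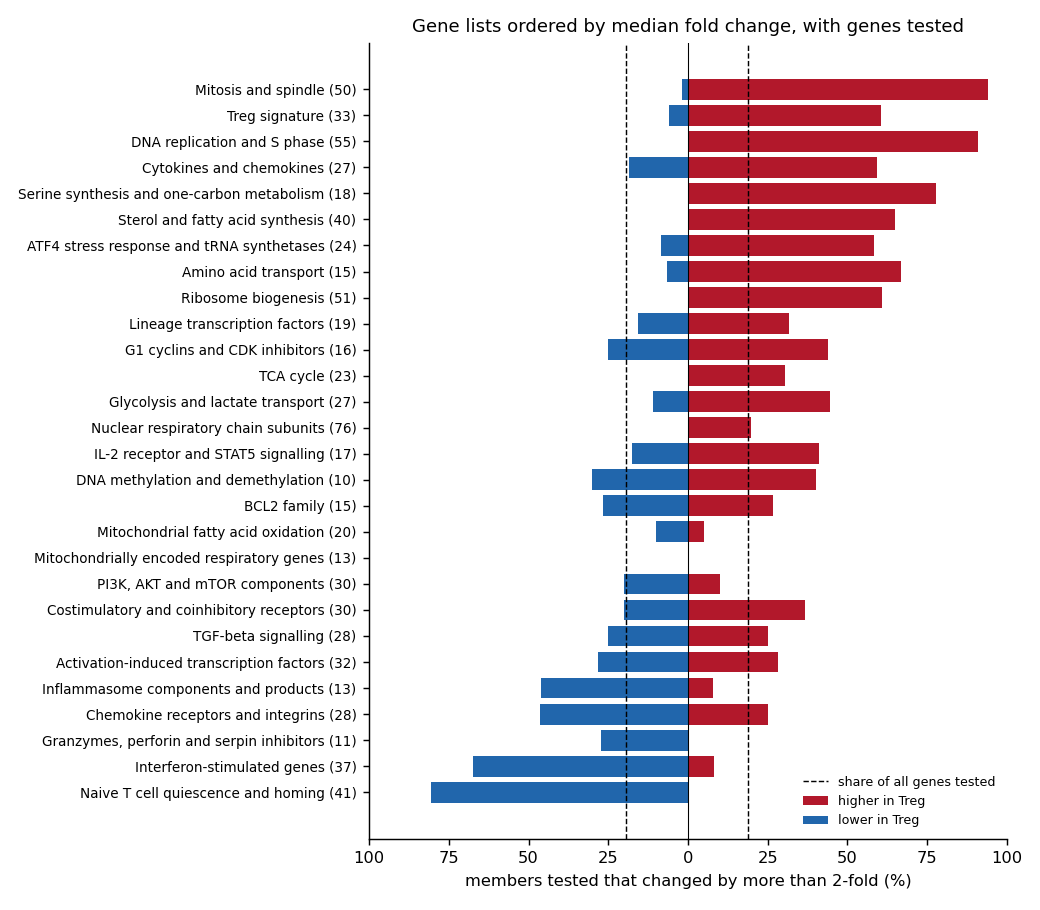
Bars give, for each gene list with its number of tested members, the percentage that changed by more than 2-fold, higher in Treg to the right and lower to the left, ordered by median log2 fold change. Dashed lines mark the shares among all genes tested, 18.8% and 19.4%, and the longest bars are those of mitosis to the right and of the naïve T cell genes to the left.

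The naïve programme fell almost as a whole. Of 41 genes of quiescence and lymph node homing, 37 were called lower and 33 by more than 2-fold, against 19.4% of all genes tested, with a median log2 fold change of -3.13. The 8 small GTPase genes of the GIMAP family, which maintain T cells, were all called lower, from Gimap9 (-1.17) to Gimap6 (-4.46).

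Ccr7, the chemokine receptor for lymph node entry, stood at 1112, 676, 639 and 734 CPM in Tn and 332, 265, 247 and 209 CPM in Treg (log2 fold change -1.59 ± 0.19 (SE), edgeR adjusted p = 2.4e-05). S1pr1, the receptor for exit, went from 843, 629.7, 556 and 618 CPM to 42.4, 22.6, 13.3 and 9.60 CPM (log2 fold change -4.91 ± 0.43 (SE), edgeR adjusted p = 1.9e-06), and Klf2, the transcription factor of these homing genes, from 347, 389.9, 412 and 352 CPM to 29.4, 19.97, 18.2 and 10.04 CPM (log2 fold change -4.27 ± 0.27 (SE), edgeR adjusted p = 1.5e-07). The groups overlapped for none of these 3 genes.

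Il7r, the receptor of the survival cytokine IL-7, fell from 539, 396, 455 and 466 CPM to 9.93, 7.503, 8.68 and 9.30 CPM (log2 fold change -5.71 ± 0.13 (SE), edgeR adjusted p = 2.5e-11). Tcf7 and Lef1, the transcription factors of naïve and memory-like T cells, had log2 fold changes of -2.45 ± 0.13 and -1.98 ± 0.12, and Foxo1, which sustains Il7r and Klf2, of -1.06 ± 0.12. Their falls were thus smaller than that of Il7r. The largest falls after Ramp3 were those of Rasgrp2, an activator of the GTPase Rap1 (-6.67), and Tsc22d3, the glucocorticoid-induced leucine zipper (-5.83). Txnip, which restrains glucose uptake, went from 1413, 1682, 1559.6 and 1478 CPM to 93.6, 83.4, 58.7 and 55.7 CPM (log2 fold change -4.40 ± 0.18 (SE), edgeR adjusted p = 2.5e-09). Treml2 was the 1 member called higher (log2 fold change 0.65 ± 0.084 (SE), edgeR adjusted p = 2.1e-05). Bach2 (log2 fold change 0.16 ± 0.25 (SE), edgeR adjusted p = 0.58) and Foxp1 (log2 fold change -0.13 ± 0.16 (SE), edgeR adjusted p = 0.47), both repressors that hold T cells in the resting state, were not called, and neither was Ramp1 (log2 fold change -1.16 ± 0.51 (SE), edgeR adjusted p = 0.058), which was called without Treg replicate 1 (-1.85, edgeR adjusted p = 0.0069).

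Genes of the Treg signature rose for the most part. Of 33 tested, 25 were called higher and 4 lower, beside 39.1% and 40.2% of all genes tested, with a median of 3.02. By more than 2-fold, 20 were higher, beside 18.8% of all genes tested. The list overlaps with the genes that the study shows for these libraries, and its direction is not independent evidence. Foxp3 (ENSMUSG00000039521.12, chromosome X, 7573644 to 7595245) stood at 2.84, 2.55, 3.32 and 2.92 CPM in Tn and 556, 520.2, 325 and 284 CPM in Treg (log2 fold change 7.18 ± 0.27 (SE), edgeR adjusted p = 3.2e-09). Every Treg library was far above every Tn library, and replicates 3 and 4 held less than replicates 1 and 2.

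Il2ra, the high-affinity subunit of the IL-2 receptor, stood at 2.92, 3.15, 4.66 and 3.11 CPM in Tn and 1405, 1456, 1304 and 1282 CPM in Treg (log2 fold change 8.62 ± 0.17 (SE), edgeR adjusted p = 7.5e-12), Tn replicate 3 being the highest of the naïve libraries. Nrp1, neuropilin 1, reached 136, 109.9, 37.0 and 43.1 CPM in Treg from about 1 CPM in Tn (log2 fold change 6.17 ± 0.54 (SE), edgeR adjusted p = 1.8e-06), with the same lower values in replicates 3 and 4 as Foxp3. Socs2, a STAT5 target (8.90), and Ccr8, a chemokine receptor of tissue Treg cells (7.76), were among the 3 largest rises. Entpd1, the ectonucleotidase CD39, was highest in replicate 3, at 9.78, 27.2, 47.6 and 28.5 CPM (log2 fold change 5.12 ± 0.56 (SE), edgeR adjusted p = 9.8e-06), with a log2 fold change of 5.77 without Tn replicate 3. Lrrc32, GARP, which presents latent TGF-beta at the cell surface, rose from a mean of 0.554 ± 0.235 CPM in Tn to 18.1 ± 10.03 CPM in Treg (± SD, n = 4; log2 fold change 5.04 ± 0.46 (SE), edgeR adjusted p = 2.4e-06).

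The receptors Tnfrsf4, OX40 (log2 fold change 3.92 ± 0.13 (SE), edgeR adjusted p = 4.7e-10), Tnfrsf9, 4-1BB (log2 fold change 2.65 ± 0.23 (SE), edgeR adjusted p = 1.6e-06), and Tnfrsf18, GITR (log2 fold change 0.91 ± 0.14 (SE), edgeR adjusted p = 9.7e-05), rose, the last by less than 2-fold. Ikzf4, Eos, went from a mean of 5.98 ± 1.72 CPM in Tn to 84.0 ± 19.6 CPM in Treg (± SD, n = 4), while Ikzf2, Helios, stayed low, at 3.37, 2.77, 3.58 and 2.65 CPM in Tn and 4.53, 6.65, 11.5 and 6.67 CPM in Treg (log2 fold change 1.25 ± 0.26 (SE), edgeR adjusted p = 9.8e-04). Itgae, the integrin CD103 (3.49), Pdcd1, PD-1 (5.46), and Lag3 (3.07) rose as well. Several genes by which Treg cells are known did not. Ctla4 stood at 74.5, 80.6, 64.1 and 69.0 CPM in Tn and 81.3, 71.9, 65.3 and 54.3 CPM in Treg (log2 fold change -0.08 ± 0.12 (SE), edgeR adjusted p = 0.56), groups that overlapped. Tigit (log2 fold change 0.58 ± 0.32 (SE), edgeR adjusted p = 0.12) and Il10, at most 1.23 CPM in any library (log2 fold change -0.87 ± 0.68 (SE), edgeR adjusted p = 0.26), were not called either, but Tigit was without Tn replicate 1 (log2 fold change 1.02, edgeR adjusted p = 8.7e-04). Icos fell slightly (log2 fold change -0.33 ± 0.13 (SE), edgeR adjusted p = 0.042), a call lost on leaving out any library but Tn replicate 3 (0.054 to 0.13). Prdm1, the regulator BLIMP-1, fell by more (log2 fold change -1.11 ± 0.35 (SE), edgeR adjusted p = 0.014, but 0.066 with all 16 libraries in one fit). S100a4 (-3.07) and S100a6 (-3.56) fell, both highest in Tn replicate 3, at 7.09 and 8.65 CPM. Without that library S100a6 was at -2.94, and without Treg replicate 1 S100a4 was at -4.22.

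**Figure D4:**
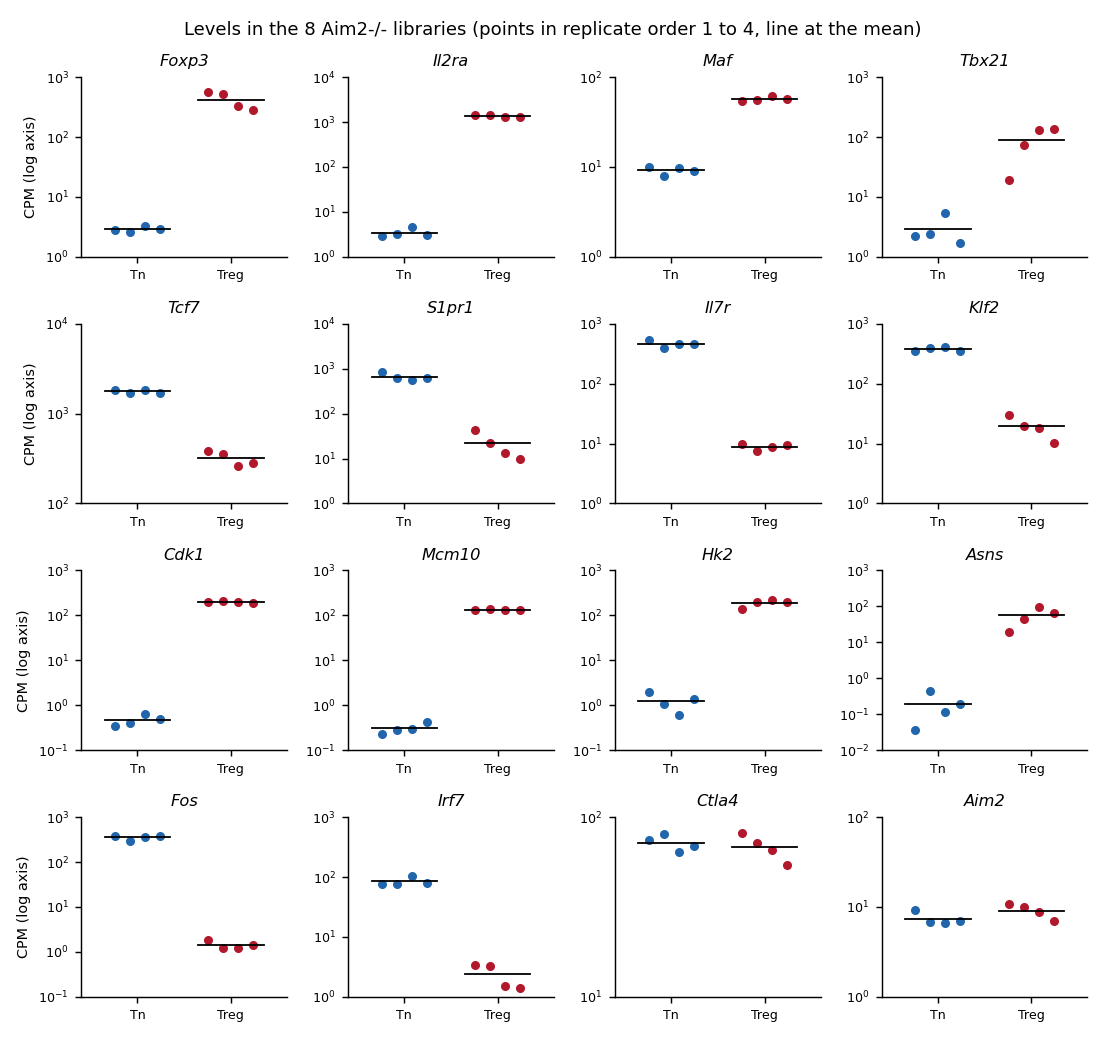
Levels of 16 genes in the 8 Aim2-/- libraries, in CPM on log axes, with Tn in blue and Treg in red, points in the order of replicates 1 to 4 and a line at the mean. Foxp3, Il2ra, Cdk1, Mcm10, Hk2 and Asns lie higher in all Treg libraries, Tcf7, S1pr1, Il7r, Klf2, Fos and Irf7 lower, and Ctla4 and Aim2 overlap.

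The transcription factors of other helper lineages were not silent beside Foxp3. Of 19 lineage factors, 11 were called higher and 6 lower, beside 39.1% and 40.2% of all genes tested, with a median of 0.93. Tbx21, the Th1 factor T-bet, stood at 2.25, 2.36, 5.30 and 1.67 CPM in Tn and 19.2, 74.9, 132 and 135 CPM in Treg (log2 fold change 4.98 ± 0.62 (SE), edgeR adjusted p = 2.8e-05). Every Treg library was above every Tn library, and Treg replicate 1 was the lowest of the Treg group. Ahr, the aryl hydrocarbon receptor (log2 fold change 4.13 ± 0.24 (SE), edgeR adjusted p = 4.4e-08), and Maf (log2 fold change 2.63 ± 0.10 (SE), edgeR adjusted p = 9.7e-10) rose as well, Ahr being highest of the Tn libraries and lowest of the Treg libraries in replicate 1. Gata3, the Th2 factor, fell from 53.7, 61.2, 55.1 and 58.1 CPM to 17.6, 12.4, 8.15 and 6.19 CPM (log2 fold change -2.37 ± 0.27 (SE), edgeR adjusted p = 1.2e-05). Falls were also called for Eomes (-2.51), Zbtb16, PLZF (-2.01), Zbtb7b, ThPOK, the factor of the CD4 lineage (-1.19), Ikzf1, Ikaros (-1.10), and Bcl6, the factor of follicular helper cells (-0.88).

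Activation-induced transcription factors divided into risers and fallers. Of 32 tested, 12 were called higher and 17 lower, beside 39.1% and 40.2% of all genes tested, with a median of -0.36. By more than 2-fold, 9 (28.1%) changed each way, beside 18.8% and 19.4% of all genes tested. Irf8 rose from 11.8, 8.38, 15.03 and 8.88 CPM to 1096, 1467, 1877 and 1693 CPM (log2 fold change 7.12 ± 0.26 (SE), edgeR adjusted p = 2.6e-09), and Irf4, which scales with receptor signal strength, from 66.4, 31.4, 27.8 and 35.6 CPM to 904, 966, 818 and 782 CPM (log2 fold change 4.43 ± 0.27 (SE), edgeR adjusted p = 1.1e-07). Batf3 had no count in Tn and 0.974, 1.54, 2.33 and 2.97 CPM in Treg, at least 18.7-fold higher. These 3 genes did not overlap between the groups. Egr2 (2.09) and Egr3 (1.80), factors that restrain activation, Nr4a3 (1.89), Nfkb1 (1.24) and Nfkb2 (1.26) rose too, and so did Bhlhe40 (1.09), Fosl1 (2.98) and, by less than 2-fold, Nfatc2 (0.35), which was not called with upper-quartile factors (0.18, edgeR adjusted p = 0.13). Several AP-1 genes went down, unlike Fosl1. Beside Fos, Fosb had a log2 fold change of -5.27, and Junb went from 3001, 2652, 2958 and 2549.7 CPM to 156, 183, 173 and 150.3 CPM (log2 fold change -4.08 ± 0.11 (SE), edgeR adjusted p = 5.5e-11). Batf, their partner in T cells, also fell (log2 fold change -1.56 ± 0.15 (SE), edgeR adjusted p = 1.4e-06), as did Egr1 (-0.49) and Nr4a1 (-0.73), whose Tn values ranged from 198 to 462 CPM. The call of Nr4a1 was lost without Treg replicate 2 or 4 (edgeR adjusted p = 0.053 and 0.063).

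IL-2 was present in the culture medium. In its receptor and STAT5 pathway 10 of 17 genes were called higher and 7 lower, with a median of 0.62. The shares among all genes tested were 39.1% and 40.2%. After Socs2 and Il2ra the largest rise was that of Cish, a feedback inhibitor of the pathway, from 29.6, 15.7, 17.9 and 19.9 CPM to 388, 354, 299 and 292 CPM (log2 fold change 4.00 ± 0.20 (SE), edgeR adjusted p = 2.5e-08). Il2rb, the shared beta chain (log2 fold change 3.67 ± 0.19 (SE), edgeR adjusted p = 2.1e-08), Stat5a (1.21) and Stat5b (0.62) rose, whereas the gamma chain Il2rg (-0.97) and the kinases Jak1 (-1.46) and Jak3 (-0.36) fell. Socs3, which restrains STAT3 signals, fell from 236, 175, 182 and 199 CPM to 15.5, 15.3, 14.6 and 13.4 CPM (log2 fold change -3.75 ± 0.11 (SE), edgeR adjusted p = 1.9e-10), and the survival kinases Pim1 (-1.65) and Pim3 (-0.91) fell as well. Il2 itself had too few counts to be tested.

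TGF-beta, the other cytokine of the medium, signals through TGFBR1 and TGFBR2 to SMAD2 and SMAD3. Of 28 genes of this pathway, 11 were called higher and 14 lower, 7 each way by more than 2-fold, with a median of -0.31, shares not far from those of all genes tested, and the single members are described for their roles. The receptor genes parted: Tgfbr1 stood at 24.8, 28.5, 18.3 and 22.1 CPM in Tn and 213, 186, 134 and 150.2 CPM in Treg (log2 fold change 2.86 ± 0.18 (SE), edgeR adjusted p = 8.6e-08), and Tgfbr2 at 616, 469.7, 449 and 436 CPM in Tn and 176, 166, 111 and 95.3 CPM in Treg (log2 fold change -1.85 ± 0.20 (SE), edgeR adjusted p = 1.1e-05), in opposite directions without overlap. Pmepa1, a target that dampens the pathway, rose (log2 fold change 3.77 ± 0.19 (SE), edgeR adjusted p = 1.5e-08), as did the ligand gene Tgfb1 (log2 fold change 1.08 ± 0.076 (SE), edgeR adjusted p = 1.3e-07) and Furin, which processes the ligand (log2 fold change 2.63 ± 0.15 (SE), edgeR adjusted p = 2.9e-08). Itgav, an integrin chain that helps to free the ligand (2.10), Eng, a co-receptor (2.29), Id1 (1.39), Ldlrad4 (0.84) and Skil (0.73) rose too. The call of Ldlrad4 was lost without Tn replicate 2, 3 or 4 or Treg replicate 1 or 2 (edgeR adjusted p = 0.055 to 0.074). That of Skil was lost with all 16 libraries in one fit (edgeR adjusted p = 0.079), and that of Eng with replicates 3 and 4 alone (edgeR adjusted p = 0.064). Smad7, the inhibitory SMAD, fell from 275, 269, 214 and 246 CPM to 43.6, 39.5, 32.8 and 26.8 CPM (log2 fold change -2.81 ± 0.15 (SE), edgeR adjusted p = 1.7e-08), and Bambi, a decoy receptor (-3.77), and Id2 (-2.74) fell more than 2-fold. Smad3 was not called (log2 fold change -0.17 ± 0.11 (SE), edgeR adjusted p = 0.17).

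Of 30 costimulatory and coinhibitory receptors, 13 were called higher and 13 lower, with a median of -0.16, which is close to the shares among all genes tested (39.1% and 40.2%). Rises included Pdcd1lg2, PD-L2 (log2 fold change 5.57 ± 0.19 (SE), edgeR adjusted p = 5.3e-10), Cd80, which had 2 counts in Tn and 1.91, 2.11, 2.40 and 1.39 CPM in Treg, Tnfrsf8, CD30 (4.27, or 5.23 without Tn replicate 1), Cd83 (3.19) and Cd200 (3.09), and Cd274, PD-L1 (0.66). Cd44, whose low level was used to select the naïve cells, stood at 56.1, 45.5, 51.8 and 41.7 CPM in Tn and 212, 223, 214 and 217 CPM in Treg (log2 fold change 2.15 ± 0.10 (SE), edgeR adjusted p = 4.0e-09). Cd27 (log2 fold change -2.84 ± 0.11 (SE), edgeR adjusted p = 1.1e-09), Vsir, VISTA (log2 fold change -2.78 ± 0.27 (SE), edgeR adjusted p = 3.4e-06), Cd69, an early activation marker (log2 fold change -2.54 ± 0.11 (SE), edgeR adjusted p = 2.7e-09), and Cd28 (log2 fold change -1.68 ± 0.17 (SE), edgeR adjusted p = 5.0e-06) fell. For Cd28 and Ctla4 a small share of the reads was assigned to a copy under the same symbol on a patch scaffold, and the rows used here hold the larger share.

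Cytokine and chemokine genes rose in the majority. Of 27 tested, 19 were called higher and 6 lower, beside 39.1% and 40.2% of all genes tested, with a median of 2.21. By more than 2-fold, 16 were higher, beside 18.8% of all genes tested. Lif, leukaemia inhibitory factor, stood at 1.497, 1.32, 1.19 and 0.950 CPM in Tn and 96.1, 136, 173 and 112 CPM in Treg (log2 fold change 6.70 ± 0.23 (SE), edgeR adjusted p = 1.1e-09). Lta, lymphotoxin alpha, stood at 15.4, 17.9, 20.8 and 20.8 CPM in Tn and 573, 768, 1305 and 1544 CPM in Treg (log2 fold change 5.81 ± 0.33 (SE), edgeR adjusted p = 6.8e-08), higher in Treg replicates 3 and 4 than in 1 and 2. Il24, of the IL-10 family, had no count in Tn and 1.54, 3.86, 11.3 and 11.9 CPM in Treg, at least 68.6-fold higher, in the same order, and Ccl1, the ligand of CCR8, went from 0 to 5.09, 4.32, 5.09 and 4.98 CPM, at least 46.7-fold.

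Effector cytokines of the Th1 and Th17 lineages were counted at moderate levels. Il17f stood at 0.150, 0.346, 0.224 and 0.491 CPM in Tn and 25.3, 17.3, 4.59 and 17.7 CPM in Treg (log2 fold change 5.70 ± 0.57 (SE), edgeR adjusted p = 5.1e-06), whereas Il17a had too few counts to be tested, as did Il4. Ifng stood at 2.47, 2.74, 7.31 and 3.01 CPM in Tn and 2.40, 6.54, 13.4 and 25.01 CPM in Treg (log2 fold change 1.61 ± 0.62 (SE), edgeR adjusted p = 0.034), groups that overlapped, with Tn replicate 3 the highest of the naïve libraries and Treg replicate 4 the highest of the cultured ones. Without Treg replicate 4 its log2 fold change was 0.96 and the call was lost (edgeR adjusted p = 0.17), as it was without Treg replicate 3 or Tn replicate 1, 2 or 4 (0.068 to 0.12). Tnf rose (log2 fold change 1.52 ± 0.16 (SE), edgeR adjusted p = 4.8e-06). Ltb (-1.51), Fasl (-1.78), Il16 (-1.18), Tnfsf8, the CD30 ligand (-3.27, or -3.95 without Treg replicate 1), and Cxcl10 (-2.11) fell along with Ccl5.

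More chemokine receptors and integrins fell than rose. Of 28 chemokine receptors and integrins, 7 were called higher and 16 lower, beside 39.1% and 40.2% of all genes tested. By more than 2-fold, 7 were higher and 13 lower, beside 18.8% and 19.4% of all genes tested. The median was -0.99, or -1.60 without Treg replicate 1. Ccr6, the receptor of CCL20, had 3 counts in Tn and 57.6, 43.9, 13.3 and 18.4 CPM in Treg, a ratio of 1265 (95% exact interval 433 to 6137), and Ccr4, a receptor of skin-homing and Treg cells, stood at 0.674, 0.630, 1.01 and 0.753 CPM in Tn and 136, 108, 48.0 and 81.9 CPM in Treg (log2 fold change 6.93 ± 0.37 (SE), edgeR adjusted p = 4.0e-08). Both were lower in Treg replicates 3 and 4 than in 1 and 2. Itgb1 (1.89) and Itga5 (1.30), the chains of the fibronectin receptor, rose. Cxcr4 fell from 335, 185, 227 and 235 CPM to 6.07, 4.47, 2.33 and 2.34 CPM (log2 fold change -6.02 ± 0.33 (SE), edgeR adjusted p = 5.0e-08), Itgb3 had a log2 fold change of -5.53, and Ccr2 fell to 1 count in the Treg libraries, from 0.861, 0.756, 2.95 and 0.426 CPM in Tn. Cxcr3 was not called (log2 fold change 0.01 ± 0.37 (SE), edgeR adjusted p = 0.98), and Tn replicate 3, at 12.9 CPM, was the highest of all 8 libraries. Without it Cxcr3 was called higher (log2 fold change 0.63, edgeR adjusted p = 0.0056).

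Of 11 genes of granzymes, perforin and their inhibitors, 2 were called higher and 6 lower, with a median of -1.02. The shares among all genes tested were 39.1% and 40.2%. Prf1, perforin, fell from 33.3, 27.8, 37.1 and 36.9 CPM to 1.498, 1.21, 1.06 and 0.806 CPM (log2 fold change -4.88 ± 0.18 (SE), edgeR adjusted p = 8.4e-10), and Gzmc fell (-3.07, or -3.82 without Treg replicate 1) from under 1 CPM. Gzmb rose (log2 fold change 1.80 ± 0.57 (SE), edgeR adjusted p = 0.014) but stayed under 8 CPM and overlapped between the groups, and its log2 fold change was 1.07 without Treg replicate 3. The call was lost with no filter on low counts, with all 16 libraries in one fit and with replicates 1 and 2 alone (edgeR adjusted p = 0.051, 0.060 and 0.11). Serpinb6a, an intracellular protease inhibitor, was the other that rose (log2 fold change 1.15 ± 0.13 (SE), edgeR adjusted p = 9.3e-06).

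Interferon-stimulated genes fell, apart from a small group. Of 37 tested, 28 were called lower, 25 by more than 2-fold, against 19.4% of all genes tested, and 6 higher, with a median of -2.71. Beside Oas2, Irf7, the factor that amplifies type I interferon, stood at 77.7, 78.0, 105 and 79.6 CPM in Tn and 3.45, 3.29, 1.497 and 1.39 CPM in Treg (log2 fold change -5.15 ± 0.28 (SE), edgeR adjusted p = 4.6e-08). Mx2, an antiviral GTPase, had a log2 fold change of -5.82 ± 0.28, and Rsad2, viperin, fell to 3 counts in the Treg libraries, a ratio of Tn to Treg of 107 (95% exact interval 36.2 to 520.3). Isg15 (-3.88), Ddx58, the RNA sensor RIG-I (-4.61), and Irf9, a subunit of the interferon-activated complex ISGF3 (-1.71), fell too.

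The 6 that rose were mostly genes also known as targets of interferon gamma. Iigp1, an immunity-related GTPase, stood at 19.6, 20.6, 29.7 and 26.7 CPM in Tn and 91.5, 253, 399.6 and 399 CPM in Treg (log2 fold change 3.57 ± 0.41 (SE), edgeR adjusted p = 1.6e-05). Other members of that GTPase family, Irgm1 (log2 fold change 1.76 ± 0.20 (SE), edgeR adjusted p = 1.6e-05) and Igtp (log2 fold change 1.53 ± 0.16 (SE), edgeR adjusted p = 4.5e-06), rose by more than 2-fold as well. Ly6a, Sca-1, stood at 96.0, 87.6, 184 and 91.1 CPM in Tn and 68.8, 277, 713 and 678 CPM in Treg (log2 fold change 1.92 ± 0.62 (SE), edgeR adjusted p = 0.017), with Treg replicate 1 below all Tn libraries, and its call was lost without Tn replicate 1 or 2 or Treg replicate 4 (edgeR adjusted p = 0.052, 0.051 and 0.081). Gbp2 (log2 fold change 0.85 ± 0.21 (SE), edgeR adjusted p = 0.0035) rose by less than 2-fold. Bst2 (-0.20) and Ifi35 (-0.19) were not called. In Iigp1, Irgm1, Igtp, Gbp2 and Ly6a alike, Treg replicate 1 held the least of the cultured libraries.

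Of 13 inflammasome components and products, the pathway to which AIM2 belongs, 8 were called lower and 2 higher. Among all genes tested these shares were 40.2% and 39.1%. By more than 2-fold, 6 were lower, beside 19.4% of all genes tested, and the median was -0.76. Casp1, the protease of the complex, fell from 6.70, 6.43, 9.44 and 8.65 CPM to 0.412, 0.822, 0.499 and 1.06 CPM (log2 fold change -3.47 ± 0.29 (SE), edgeR adjusted p = 5.2e-07). Gsdmd, gasdermin D, which forms pores when cleaved, fell from 81.4, 86.2, 103 and 90.6 CPM to 12.8, 12.5, 13.7 and 9.49 CPM (log2 fold change -2.90 ± 0.13 (SE), edgeR adjusted p = 3.0e-09). Pycard, the adaptor ASC, fell by less than 2-fold (log2 fold change -0.55 ± 0.11 (SE), edgeR adjusted p = 6.9e-04), and Nlrc4, another sensor, had a log2 fold change of -4.47. Il1a rose from at most 0.15 CPM in Tn to 10.3, 9.15, 7.02 and 13.4 CPM in Treg (log2 fold change 6.77 ± 0.42 (SE), edgeR adjusted p = 5.3e-08), and Nek7, a partner of NLRP3, by 0.75. Nlrp3, Il1b and Il18 had too few counts to be tested.

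The BCL2 family, which sets the threshold of apoptosis, moved both ways, with a median of 0.35. Of 15 tested, 8 were called higher and 5 lower, beside 39.1% and 40.2% of all genes tested. Among the anti-apoptotic genes, Bcl2l1, BCL-XL, stood at 15.7, 16.4, 16.8 and 12.0 CPM in Tn and 102, 103, 113 and 132 CPM in Treg (log2 fold change 2.89 ± 0.13 (SE), edgeR adjusted p = 3.3e-09), and Bcl2l2 (2.84) and Bcl2a1d (2.51) rose, while Bcl2 (log2 fold change -1.07 ± 0.18 (SE), edgeR adjusted p = 2.4e-04) and Mcl1 (log2 fold change -1.69 ± 0.075 (SE), edgeR adjusted p = 3.2e-09) fell. Bcl2a1d shares reads with near-identical copies, and its level is uncertain. Among the pro-apoptotic genes of the BH3-only kind, Bcl2l11, BIM, fell from 101, 68.6, 55.3 and 60.9 CPM to 10.2, 7.75, 6.06 and 4.50 CPM (log2 fold change -3.33 ± 0.27 (SE), edgeR adjusted p = 8.7e-07), with Bbc3, PUMA (-3.05), and Bmf (-2.49).

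Enzymes that set and remove DNA methylation, which bears on the stability of Foxp3, moved in both directions. Of 10 genes, 5 were called higher and 3 lower, beside 39.1% and 40.2% of all genes tested, with a median of 0.38. Dnmt1, the maintenance methyltransferase, stood at 134, 153, 123 and 140.5 CPM in Tn and 729, 739, 671 and 586 CPM in Treg (log2 fold change 2.31 ± 0.10 (SE), edgeR adjusted p = 3.3e-09), and Tdg, the glycosylase of active demethylation, rose by 1.92 ± 0.088. Tet1, which oxidises methylcytosine, fell from 18.9, 20.1, 12.0 and 14.8 CPM to 2.32, 1.57, 0.965 and 0.732 CPM (log2 fold change -3.56 ± 0.32 (SE), edgeR adjusted p = 1.8e-06), Tet2 was not called (log2 fold change -0.21 ± 0.12 (SE), edgeR adjusted p = 0.13) unless Tn replicate 3 was left out (-0.32, edgeR adjusted p = 0.0034), and Gadd45a (-3.93) and Gadd45b (-1.48) fell.

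The spread between libraries touches these results. Deviations from the group mean over all genes tested correlated at 0.13 between Treg replicates 1 and 2 and at 0.14 between 3 and 4, and at -0.47 to -0.66 across these pairs. As the mean is that of the same 4 libraries, such deviations correlate negatively by construction, and these values cannot be read against 0. Foxp3, Nrp1, Ccr4, Ccr6 and Lrrc32 were lower, and Tbx21, Lta, Il24, Asns, Chac1 and Iigp1 higher, in replicates 3 and 4. Among Tn libraries, replicate 3 held the most Ifng, Cxcr3, S100a4, S100a6, Isg15 and Irf7. No label ties these libraries to a batch, and what set them apart was not tested. With replicates 1 and 2 alone, 10429 genes were called and 5105 by more than 2-fold, and with replicates 3 and 4 alone, 10473 and 5187.

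Markers of cell types were read beside the lists. The 12 T cell markers were present in all libraries, and their summed level was 7016 to 8456 CPM in Tn and 3045 to 3746 CPM in Treg. All 12 were called lower, 7 by more than 2-fold, beside 40.2% and 19.4% of all genes tested. Among the 12 were Cd4 (log2 fold change -1.14 ± 0.072 (SE), edgeR adjusted p = 5.8e-08), Trac (log2 fold change -1.52 ± 0.084 (SE), edgeR adjusted p = 1.8e-08) and Cd3e (-0.73). The genes that define the cells thus took up a smaller share of their RNA after culture. Marker transcripts of other cell types were counted in Tn, and most of these lists were lower in Treg. Summed CD8 T cell markers (2 genes) went from 9.23 to 11.5 CPM in Tn to 2.53 to 4.00 CPM in Treg, almost all of it Cd8b1. The other gene, Cd8a, had too few counts to be tested, so these sums alone do not show that CD8 T cells were present. Gamma-delta T cell markers (5 genes) went from 9.10 to 10.8 CPM to 2.56 to 4.76 CPM, and NK cell markers (7 genes) from 13.8 to 35.8 CPM to 3.15 to 6.12 CPM. Of the NK markers, Klrb1c, Ncr1, Klra4 and Klra8 were at 0 in all Treg libraries, and Eomes was much of the rest.

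Myeloid markers (12 genes) summed to 14.6 to 17.1 CPM in Tn and 1.80 to 3.97 CPM in Treg, with Lyz2, C1qa, C1qb, S100a8 and S100a9 at 0 in Treg, and erythroid markers (7 genes) to 5.35 to 7.96 CPM and at most 0.107 CPM. Platelet markers (4 genes) summed to 3.88 to 4.79 CPM and 0.732 to 1.16 CPM. B cell markers (11 genes) rose in sum, from 11.9 to 17.0 CPM to 35.6 to 57.3 CPM, through Cd74, the invariant chain, which activated T cells can also express (log2 fold change 2.17 ± 0.23 (SE), edgeR adjusted p = 8.9e-06), and Fcmr (4.89, or 5.48 without Tn replicate 3), while Ms4a1 and Pax5 were at 0 in Treg. Dendritic cell markers (7 genes) summed to 0.861 to 2.54 CPM in Tn and 2.17 to 4.47 CPM in Treg, the 2 with enough counts to be tested, Zbtb46 and Batf3, being called higher, and Clec9a and Siglech were at 0 in Treg. Whether other cells had a part in the falls of Ccl5, Prf1 and the interferon-stimulated genes was not tested. Of the sex-linked genes, Xist had no count in 7 libraries and 1 count in the other, and Ddx3y was counted in all 8.

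The response was then set beside that of WT cells, which share no library with it, to ask whether loss of AIM2 changed the response to culture. Over 13378 genes tested in both genotypes, the log2 fold changes had a Pearson r of 0.98 and a Spearman rho of 0.98 across genes, which are not independent replicates, and their median absolute difference was 0.14. Of 5054 genes changed by more than 2-fold in Aim2-/- cells and tested in WT cells, 5052 had the same direction there. Foxp3, for example, had a log2 fold change of 7.41 in WT cells beside 7.18, Mki67 of 7.38 beside 7.78, and Il7r of -6.00 beside -5.71. The 2 genes with the opposite direction were Ifi211 and G530011O06Rik, the latter under 3 CPM on average in each group and with no difference called between the genotypes (edgeR adjusted p = 0.22).

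The difference of the culture effect itself was called for 3 of 14669 genes (0.0205%) in edgeR's interaction test, while 512 had an unadjusted p under 0.05. Without Aim2-/- Tn replicate 1 the count was 5. Tmem181b-ps, a pseudogene on chromosome 17 (ENSMUSG00000096780.7, 6438524 to 6467022 on GRCm38), stood in Aim2-/- cells at 19.7, 23.9, 17.4 and 22.8 CPM in Tn and 9.18, 9.58, 11.7 and 11.2 CPM in Treg, and in WT cells at 0.176, 0.323, 0.172 and 0.277 CPM in Tn and 2.64, 2.28, 3.21 and 3.86 CPM in Treg. It fell in one genotype and rose in the other (difference of log2 fold changes -4.66 ± 0.29 (SE), edgeR adjusted p = 3.1e-07), and the genotypes did not overlap in either state. Its counts were shared in part with other genes.

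Ifi211, an interferon-inducible gene of the PYHIN family to which Aim2 belongs (ENSMUSG00000026536.9, chromosome 1, 173896345 to 173913046, on the same chromosome as Aim2), stood in Aim2-/- cells at 5.84, 9.20, 6.94 and 6.55 CPM in Tn and 0.450, 0.250, 0.532 and 0.293 CPM in Treg. In WT cells it stood at 0.176, 0.242, 0.386 and 0.381 CPM in Tn and 2.10, 5.77, 1.98 and 25.1 CPM in Treg, so that it fell in Aim2-/- and rose in WT cells (difference -9.09 ± 1.10 (SE), edgeR adjusted p = 0.0046). The WT Treg values were uneven, replicate 4 being the highest, its counts were shared in part with other genes, and it was not called by limma-voom (adjusted p = 0.10). Wdfy1, an endosomal protein (ENSMUSG00000073643.11, chromosome 1, 79702262 to 79776143), stood in Aim2-/- cells at 8.87, 10.7, 10.3 and 9.47 CPM in Tn and 5.58, 5.61, 3.86 and 5.49 CPM in Treg and in WT cells at 12.5, 11.4, 14.4 and 15.03 CPM in Tn and 14.7, 17.3, 14.7 and 16.4 CPM in Treg (difference -1.20 ± 0.19 (SE), edgeR adjusted p = 0.035). It fell in Aim2-/- cells and was not called in WT cells. The call of Wdfy1 was lost on leaving out any 1 of 13 of the 16 libraries (edgeR adjusted p = 0.051 to 0.17), with library totals alone (0.092) and with at least 10 counts in every library (0.069). Of the 3, Ifi211 and Wdfy1 lie on chromosome 1, as does Aim2, Ifi211 close to Aim2 and Wdfy1 far from it. For all 3 the genotypes did not overlap in Tn.

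**Figure D5:**
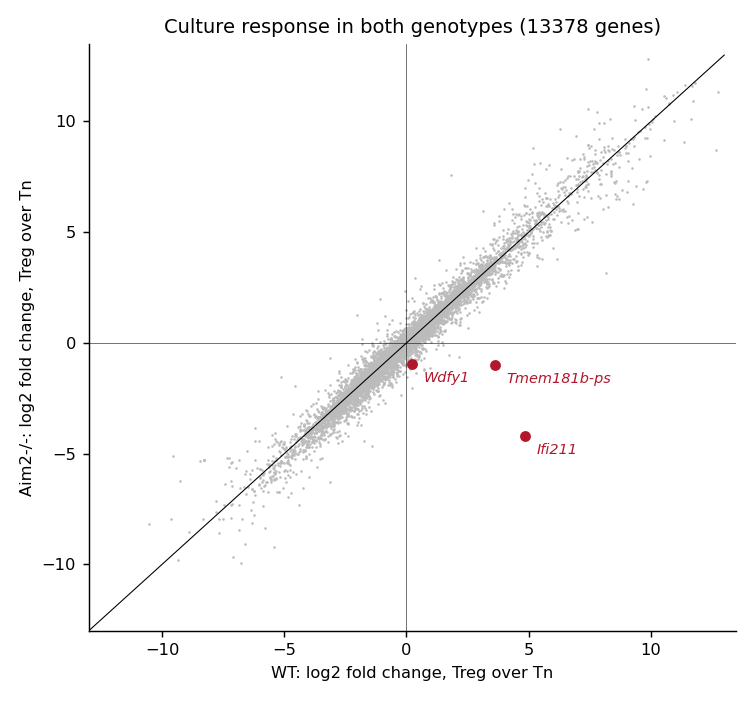
Each point is 1 of the 13378 genes tested in both genotypes, with its log2 fold change, Treg over Tn, in WT cells on the horizontal axis and in Aim2-/- cells on the vertical axis, and a diagonal of equal change. Most points lie along the diagonal, and the 3 labelled genes, for which the difference was called, lie below it.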

How the data were processed

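Stranded single-end mRNA libraries were mapped by the authors with STAR to GRCm38 and quantified with RSEM on GENCODE m15, per the study's methods and the labels; versions are not given in the sources used here. The values deposited by the authors are expected counts per gene, neither normalized nor filtered, with 1 file per library. Groups and replicate numbers were taken from the sample titles and source names. File names number some libraries differently.

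Expected counts were rounded and scaled with TMM factors, and genes that reached 10 counts in 4 or more of the 8 Aim2-/- libraries were tested with the robust quasi-likelihood F test of edgeR 4.0.16 (R 4.3.3, limma 3.58.1), two-sided, with Benjamini-Hochberg adjustment over all genes tested and a threshold of 0.05. A change of more than 2-fold was tested with glmTreat against a log2 fold change of 1. The interaction with genotype was fitted on all 16 libraries. RSEM shares reads between similar genes, and 5317 of the tested genes had counts that were not whole in at least 1 library, so that levels of near-identical copies are uncertain. For 213 symbols with several identifiers 1 identifier was used. Coordinates come from GENCODE M21 on GRCm38, which held 98.7% of the identifiers, and promoters from RefSeq on GRCm38.p6. The code was tested on simulated data.

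Members and gene lists were chosen with earlier results of these data known. The genes named were Aim2, the 10 largest rises and falls among genes called, without overlap and of at least 10 CPM in the higher group, the 3 largest rises and falls of each list called at more than 2-fold, members by which a list is known, of which 28 were added after their values had been seen, members that moved against the majority of their list, and the genes called in the interaction. Other scalings, filters and tests (DESeq2 1.42.0, limma-voom), a replicate block and leaving out each library were the alternatives. Some genes of the lists are not reported here by name.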

Additional observations from a re-analysis of the deposited data

Results flagged for a closer look

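In 50 of 622 groups of 4 libraries examined (8.04%), the highest or lowest library lay apart from the other 3 by more than Dixon's 95% critical value. For normally distributed values chance exceeds it in about 1 in 20 groups. That rate does not hold near 0 counts, where a library with any count beside libraries at 0 is always flagged, as for Acsl6, Gm17322, S100a9, Ccr2 and Xist. The share flagged can therefore not be read against it. Aim2-/- Tn replicate 3 was involved most often. Its levels were the highest of the Tn group for Cxcr3 (12.91 CPM), Ifng (7.312 CPM), Irf7 (105.5 CPM), Isg15 (21.04 CPM), Ly6a (183.9 CPM), S100a4 (7.088 CPM), S100a6 (8.655 CPM), Entpd1 (1.753 CPM), Il2ra (4.663 CPM), Itgb1 (58.68 CPM) and Cd3e (391.6 CPM). It held the single Tn count, worth 0.03731 CPM, of Acsl6, Gm17322 and S100a9, and the least mt-Co3 (0.1119 CPM).

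Tn replicate 1 was the highest of its group for Jak1 (1151 CPM), Nfkb2 (146.9 CPM), Cpt1a (81.33 CPM), Bhlhe40 (75.64 CPM), Aim2 (9.245 CPM), Ahr (3.893 CPM) and Cdc25c (0.1497 CPM) and the only Tn library with 0 CPM of Klra4. Tn replicate 2 was the lowest for Cd69 (258.0 CPM), Cd8b1 (9.166 CPM), the sum of CD8 T cell markers (9.229 CPM) and Eif4ebp1 (3.087 CPM) and the highest for Cdk6 (11.02 CPM). Tn replicate 4 had the highest sum of erythroid markers (7.96 CPM), the lowest level of Cdkn1c (1.998 CPM), 0 CPM of Nlrp3 and the only Tn counts of Ccr6 (0.09828 CPM).

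Among the cultured libraries, Treg replicate 1 was the lowest for Pim1 (122.6 CPM), Ahr (34.01 CPM) and Il18 (0 CPM), and the highest for Cd4 (409.6 CPM), Egr3 (47.05 CPM), Idh2 (39.18 CPM) and Lrrc75b (0.3371 CPM). Treg replicate 2 held the most Pim3 (55.49 CPM) and the least Ccl1 (4.323 CPM). Treg replicate 3 held the most Eomes (5.324 CPM) and NK cell markers in sum (6.122 CPM), and the least Wdfy1 (3.86 CPM) and Gadd45a (1.83 CPM). Treg replicate 4 had the highest mt-Co1 (6974 CPM) and Zbtb46 (1.428 CPM), the only Treg counts of Ccr2 and Xist (0.03662 CPM each) and 0 CPM of Rsad2.

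Between the genotypes, the culture effect differed in edgeR's interaction test for Tmem181b-ps (log2 difference -4.66), Ifi211 (-9.09) and Wdfy1 (-1.20).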

How the results depend on the processing

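The count of genes called in Aim2-/- cells (10878) lay between 8970 and 12613, and that of changes over 2-fold (5250) between 3619 and 6280, in all alternatives, the lowest with at least 10 counts in every library and the highest with no filter, where fewer and more genes were tested. Leaving out 1 library gave 10624 to 11084 and 5200 to 5561. Upper-quartile factors shifted the median log2 fold change by -0.17, so that 43.5% of the calls were higher in Treg against 49.3%, and turned the medians of mitochondrially encoded (-0.16) and fatty acid oxidation genes (-0.06) below 0. Of 300 named genes, 35 changed their side of the threshold in some alternative and none its called direction. Lost were the calls of Ifng, Ldlrad4, Slc2a1, Nfatc2 and mt-Nd1 with upper-quartile factors, of Icos with RLE factors or DESeq2, of Icos and Ifng with limma-voom, of Gzmb, Icos, Ifng, Prdm1, Skil and Slc2a1 with all 16 libraries in one fit, and of Acaa2, Gzmb, Icos, Ifng, Ldlrad4, Ly6a, Ndufa2, Ndufb11, Nr4a1, Tm7sf2, mt-Co1 and mt-Co2 with no filter, where more genes were tested. Gained were Smad3, Smc4, Tet2, Ifi35 and Ramp1, all lower, with upper-quartile factors, and Tigit and Ramp1 with limma-voom. The culture effect differed between genotypes for 10 genes with DESeq2, for 0 in edgeR with at least 10 counts in every library (369 at an unadjusted p under 0.05), where fewer genes were tested, and for 2 to 5 on leaving out 1 library. For DESeq2 the cause was not tested. Deviations of same-numbered Tn and Treg libraries correlated at -0.04 to 0.09. With 4 libraries per group and file names that number some differently, this cannot tell whether replicate numbers mark shared mice. With the replicate block 10859 genes were called, 5258 over 2-fold and 2 in the interaction, and the calls of Ifng, Ly6a and the interaction of Wdfy1 were lost. At 3 counts per library, genes under about 0.1 CPM could not be told from 0.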
